A study of Mus musculus with 12 samples.

Results

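The subject of this account is the contrast between brain regions of the effect of losing Ercc1: the change between Ercc1-/- and wild type mice in hippocampus minus the same change in cerebellum. All 12 arrays of the series enter this contrast, in 4 groups of 3. They are Ercc1-/- hippocampus (KO hippocampus), wild type hippocampus (WT hippocampus), Ercc1-/- cerebellum (KO cerebellum) and wild type cerebellum (WT cerebellum), all at postnatal day 21 and from crosses of the FVB and C57BL/6 strains. Per the design text, both tissues came from 3 KO mice and 3 WT littermates. Ercc1 was lost from the germ line, so neither a driver nor a cell type limits where the gene is missing. The arrays were Affymetrix Mouse Genome 430_2.0, on which a probe set is a group of short probes that report on 1 transcript or a family of transcripts.

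Ercc1 forms a nuclease with Xpf that cuts DNA beside bulky lesions and crosslinks, and mice without it grow poorly and age early. Hippocampus and cerebellum differ in their neurons and in their supply of glia. Oligodendrocytes wrap axons in myelin and make much of the cholesterol and fatty acid of the brain, astrocytes supply neurons, and microglia clear debris with lysosomal enzymes and complement.

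A difference below 0 means that the KO effect was lower in hippocampus than in cerebellum, and a difference above 0 means that it was higher in hippocampus. Effects are differences of mean log2(intensity + 32), so 1 unit is a doubling for a bright probe set and an understated one for a dim probe set. Of 45037 probe sets other than controls, 23283 lay above the 40th percentile of mean level in both regions and were tested in 1 limma fit. Gene names came from the authors' deposited lists of selected probe sets, which give 1 current symbol to 538 probe sets of 486 genes. Of these, 499 probe sets of 452 genes were tested and 39 fell to the filter.

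The way the names arose sets a direction in advance. A named gene had been selected because KO and WT differed in 1 region on these same arrays, so a named gene tends to have a larger effect in the region that selected it. Among the 499 named probe sets 73.1% had a difference below 0, while of all probe sets tested 46.5% were below 0 and 53.5% above. The share below 0 was 99.0% of 209 higher in the cerebellum list alone and 98.4% of 129 lower in the hippocampus list alone. It was 5.4% of 74 higher in the hippocampus list alone and 10.3% of 58 lower in the cerebellum list alone. The counts of named genes below describe these genes and are not independent evidence of a direction.

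Array medians were 160.2 to 168.2 in hippocampus and 154.4 to 168.2 in cerebellum, while array means were 585.9 to 600.1 and 445.3 to 460.1 units of intensity. These values do not settle whether the 2 regions were scaled together or separately. Intensities set side by side across regions below therefore share no known scale. Beyond genotype, 1 component held 70.4% of the residual variance of the hippocampus arrays and 49.9% of that of the cerebellum arrays. The Gapdh 3'/5' control ratio, a sign of RNA quality, was 1.497 on array 1 of KO cerebellum, against 0.999 to 1.202 on the other 5 cerebellum arrays. The labelled tissue could be checked only in part, since no gene of the hippocampal neuron list had a name and, of the cerebellar neuron list, Neurod1 is the gene described here. Ercc1 itself (probe set 1417328_at) had intensities of 49.8, 64.9 and 65.9 in KO hippocampus, against 190, 223 and 175 in WT hippocampus. It had 55.9, 64.7 and 70.3 in KO cerebellum, against 223, 170 and 115 in WT cerebellum. KO arrays lay below WT arrays in both regions, and the KO effects of -1.30 and -1.04 differed by -0.26 ± 0.24 (SE, limma unadjusted p = 0.294, in a fit without the filter, which had left this dim probe set out).

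The gene whose regional difference passed the threshold was Ctss, which encodes cathepsin S, a lysosomal protease of microglia that also trims the invariant chain in antigen presentation. Its promoter is shown with those of Cst3, Mal and Ermn, which are described below. Those of Tle6 and Scd1, also described below, are not shown. The 300 bases run from 250 before to 50 after the RefSeq start of each gene (GRCm38.p6), 5′ to 3′ on the strand of the gene. They lie at chr3:95526536-95526835 on the plus strand for Ctss, and on the minus strand at chr2:148875463-148875762 for Cst3, chr2:127656646-127656945 for Mal and chr2:58052815-58053114 for Ermn. Capitals mark matches, on either strand, to 4 motifs: TCACNCCAC of SREBP, ACAAAG of SOX factors, GAGGAAG of PU.1 and CCAAT of NF-Y. No match of 1 motif overlapped a match of another.
Ctss promoter: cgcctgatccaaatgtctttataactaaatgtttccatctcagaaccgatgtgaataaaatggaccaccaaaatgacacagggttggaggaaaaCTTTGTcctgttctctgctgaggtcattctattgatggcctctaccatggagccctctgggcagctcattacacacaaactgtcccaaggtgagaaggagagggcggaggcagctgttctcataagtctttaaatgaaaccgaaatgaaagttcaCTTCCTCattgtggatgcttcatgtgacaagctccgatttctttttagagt
Cst3 promoter: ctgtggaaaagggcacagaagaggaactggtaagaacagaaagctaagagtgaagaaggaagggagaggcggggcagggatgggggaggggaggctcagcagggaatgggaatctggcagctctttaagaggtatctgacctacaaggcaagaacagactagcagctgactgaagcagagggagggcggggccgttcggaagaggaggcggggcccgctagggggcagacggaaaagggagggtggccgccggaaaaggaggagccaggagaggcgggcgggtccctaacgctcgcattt
Mal promoter: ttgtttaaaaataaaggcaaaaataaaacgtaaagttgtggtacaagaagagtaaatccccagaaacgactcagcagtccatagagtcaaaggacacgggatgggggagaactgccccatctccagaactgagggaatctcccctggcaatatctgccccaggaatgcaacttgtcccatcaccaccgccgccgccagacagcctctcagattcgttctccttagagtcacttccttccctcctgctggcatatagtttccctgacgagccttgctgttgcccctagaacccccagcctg
Ermn promoter: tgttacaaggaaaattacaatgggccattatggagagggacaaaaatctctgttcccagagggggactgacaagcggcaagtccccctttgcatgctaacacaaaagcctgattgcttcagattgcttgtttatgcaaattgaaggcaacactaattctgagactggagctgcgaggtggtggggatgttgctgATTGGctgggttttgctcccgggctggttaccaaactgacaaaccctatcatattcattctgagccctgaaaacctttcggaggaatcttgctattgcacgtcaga

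The Ctss promoter held a SOX match that began 156 bases before the start. Its PU.1 match began 1 base before the start and ran past it, and both lay on the reverse strand. The Ermn promoter held an NF-Y match 56 bases before the start, on the reverse strand. The Cst3 and Mal promoters held none of these letters. Over 32851 mouse promoters of the same length, 1.2% held the SREBP letters, 18.7% the SOX letters, 13.6% the PU.1 letters and 37.4% the NF-Y letters. A match is a description of the sequence and was not tested as a binding site. GC content was 44.0% for Ctss, 60.3% for Cst3, 51.0% for Mal and 47.0% for Ermn.

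Ctss had intensities of 3552, 3401 and 3477 in KO hippocampus, against 2890, 2954 and 2908 in WT hippocampus. In cerebellum it had 1103, 1247 and 1144 in KO, against 523, 519 and 496 in WT. KO arrays lay above WT arrays without overlap in both regions, and the arrays of each group lay close together. The log2 effect was 0.25 ± 0.07 in hippocampus and 1.13 ± 0.07 in cerebellum (SE). The difference of -0.88 ± 0.10 (95% confidence interval -1.10 to -0.67) passed the threshold of 0.05 (limma, Benjamini-Hochberg adjusted p = 0.0306). Of the 23283 probe sets, Ctss was the 1 with a difference below 0 that passed (0.00429%), and 0 passed above 0 (0.0%). On the intensity scale, which was looked at after the data were seen, KO exceeded WT by 560 ± 48 in hippocampus and by 652 ± 44 in cerebellum, a difference of -92.2 ± 64.7 (SE). That last value depends on the unknown scaling between the regions. The call held without array 1 or array 2 of WT cerebellum and ended without any 1 of the other 10 arrays, where the adjusted p was at most 0.205. With the replicate number as a block the adjusted p was 0.0714, 0.281 with the number within a region and 0.613 with genotype and number taken as mice.

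An unadjusted limma p under 0.05 was reached by 731 probe sets (3.14%), 220 of them above 0 (0.945%) and 511 below 0 (2.19%). Of the 731, 613 had effects of opposite sign in the regions (2.63% of all tested). Among all probe sets tested 45.5% had effects of opposite sign, which includes effects near 0. The 2 effects correlated at r = 0.18 across the 23283 probe sets, which share arrays and are not independent replicates.

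**Figure D1:**
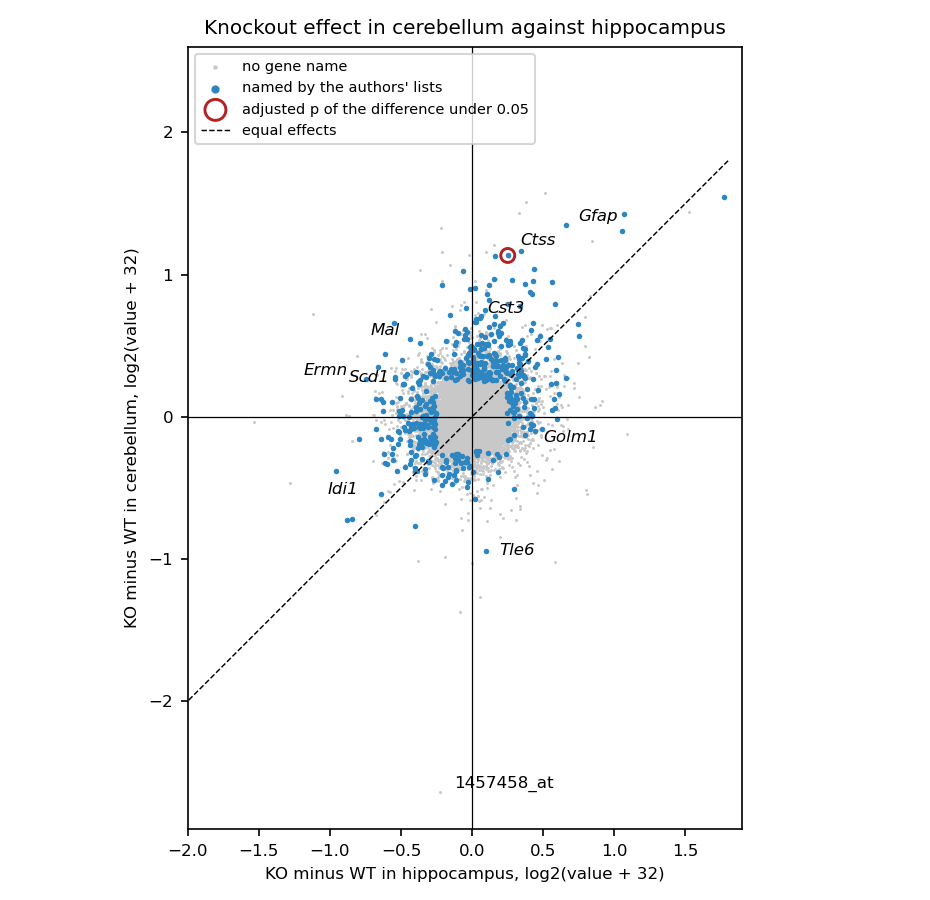
Log2 KO effect in cerebellum (vertical) against hippocampus (horizontal) for the 23283 probe sets tested, grey without and blue with a gene name, with the dashed line at equal effects. Ctss, ringed, at 0.25 and 1.13, is the probe set past the threshold, while Mal, Scd1 and Ermn lie in the upper left with effects of opposite sign.

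Next to the threshold stood 3 probe sets with the same adjusted p of 0.0706 (limma, Benjamini-Hochberg). Tle6, a corepressor of the Groucho family, had 193, 187 and 215 in KO hippocampus, against 164, 205 and 180 in WT hippocampus. It had 220, 214 and 226 in KO cerebellum, against 496, 407 and 461 in WT cerebellum. The groups overlapped in hippocampus, and KO lay below WT without overlap in cerebellum. The difference of Tle6 was 1.05 ± 0.14 (SE; 95% confidence interval 0.74 to 1.35).

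Cst3 encodes cystatin C, a secreted inhibitor of cathepsins including cathepsin S. It had 12611, 13449 and 13414 in KO hippocampus, against 12068, 12998 and 13929 in WT hippocampus, and the groups overlapped. On the cerebellum arrays it had 6661, 7038 and 6678 in KO, against 4444, 4303 and 4043 in WT, without overlap. Its effects of 0.02 and 0.67 gave a difference of -0.65 ± 0.09 (SE; 95% confidence interval -0.84 to -0.45), and on the intensity scale KO minus WT was 160 ± 603 in hippocampus and 2529 ± 170 in cerebellum. The difference on that scale was -2369 ± 626, of the same sign as on the log2 scale. The third, probe set 1457458_at, has no gene name here and had the difference of 2.41 ± 0.31 (SE). Its intensities were 112, 103 and 110 in KO hippocampus, against 126, 143 and 129 in WT hippocampus. They were 41.1, 27.4 and 25.6 in KO cerebellum, against 593, 260 and 299 in WT cerebellum.

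**Figure D2:**
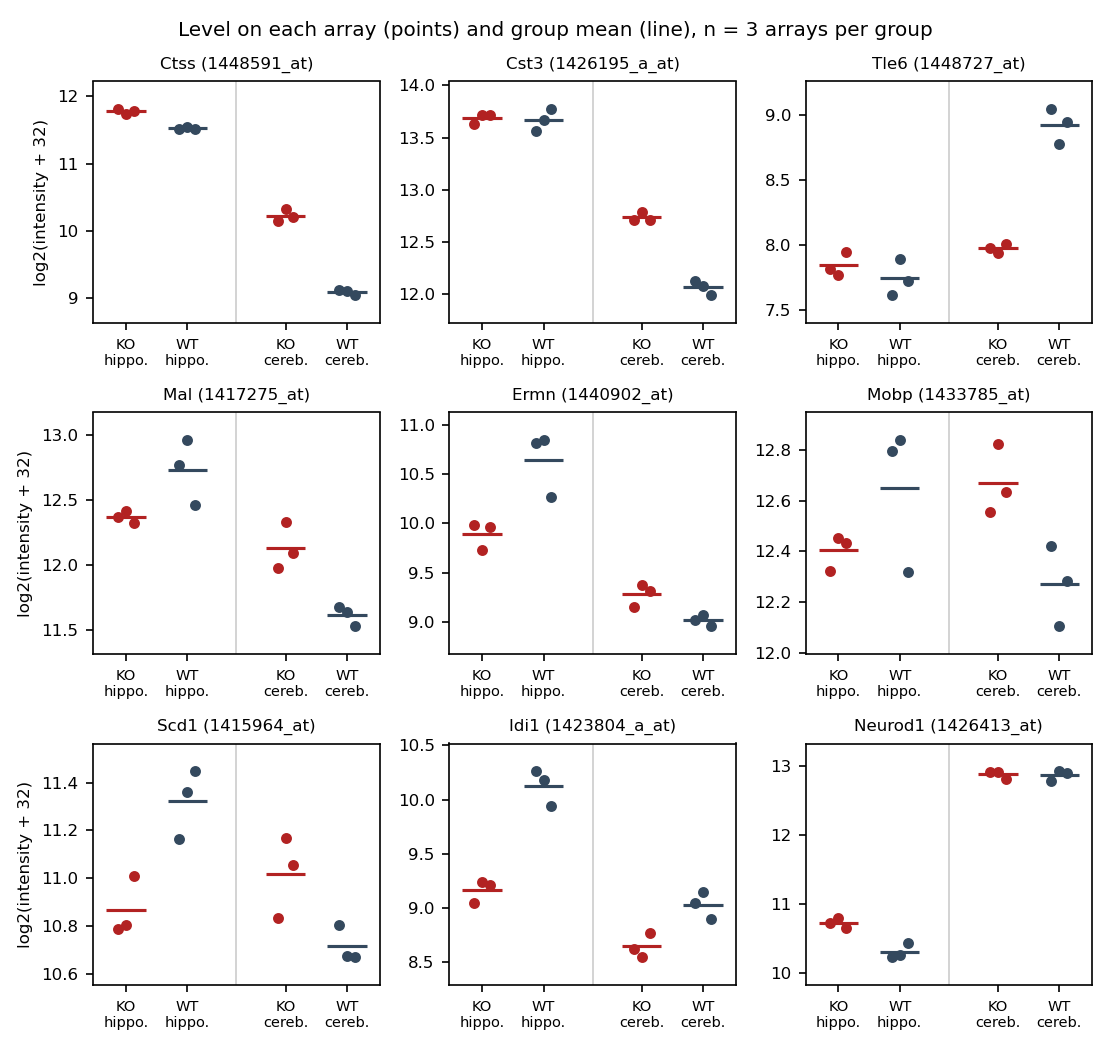
Level on each array as log2(intensity + 32), KO left of WT in each region, for 9 probe sets named in the text, with points for arrays and lines for the means of 3 arrays. The vertical scales differ between panels. Ctss is higher in KO in both regions and by more in cerebellum, whereas Mal, Ermn and Scd1 are lower in KO hippocampus and higher in KO cerebellum.

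The strictest form of opposite effects is that every KO array lay on 1 side of every WT array in hippocampus and on the other side in cerebellum. This held for 66 of the 23283 probe sets (0.283%). In 43 of them KO was lower in hippocampus and higher in cerebellum (0.185%), and in 23 KO was higher in hippocampus and lower in cerebellum (0.0988%). In comparison, 275 probe sets (1.18%) had KO and WT apart in the same direction in both regions. Of the 66, 18 had a name, for 17 genes, and 16 of these were lower in KO hippocampus and higher in KO cerebellum. The authors had selected 11 of the 18 in cerebellum alone, 6 in hippocampus alone and 1 in both. None of the 18 passed the threshold for the difference (limma, unadjusted p 0.000242 to 0.00569, adjusted p at least 0.869). Their values are therefore given as a description.

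Mal, a proteolipid of myelin and of membrane rafts, was measured by 2 probe sets. Probe set 1417275_at had 5261, 5420 and 5084 in KO hippocampus, against 6960, 7931 and 5616 in WT hippocampus, and 3987, 5116 and 4324 in KO cerebellum, against 3237, 3154 and 2917 in WT cerebellum. Probe set 1432558_a_at had 3124, 3931 and 3056 in KO hippocampus, against 5042, 5833 and 4042 in WT hippocampus, and 2588, 3446 and 2625 in KO cerebellum, against 1465, 1932 and 2060 in WT cerebellum. Both probe sets had KO below WT in hippocampus and above WT in cerebellum without overlap. The differences were -0.88 ± 0.17 and -1.21 ± 0.24 (SE).

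Ermn encodes ermin, a cytoskeletal protein of mature oligodendrocytes. It had 977, 820 and 966 in KO hippocampus, against 1770, 1802 and 1199 in WT hippocampus, with array 3 of WT nearest to KO. In cerebellum it had 538, 632 and 603 in KO, against 489, 506 and 465 in WT, which lay apart but close. The effects of -0.75 ± 0.14 and 0.26 ± 0.14 gave a difference of -1.01 ± 0.20 (SE). Without each array in turn the difference of Ermn lay between -1.20 and -0.91.

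Scd1 encodes stearoyl-CoA desaturase, which makes monounsaturated fatty acids. It had 1734, 1756 and 2028 in KO hippocampus, against 2260, 2597 and 2761 in WT hippocampus. Its cerebellum values were 1793, 2267 and 2095 in KO, against 1754, 1601 and 1597 in WT, where array 1 of KO lay just above array 1 of WT. Both regions were without overlap, in opposite directions, with effects of -0.46 ± 0.11 and 0.30 ± 0.11 and a difference of -0.76 ± 0.15 (SE). The difference kept its sign on the intensity scale for all 3 genes, where it was -2954 ± 762 for Mal (1417275_at), -774 ± 204 for Ermn and -1100 ± 229 for Scd1 (SE).

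**Figure D3:**
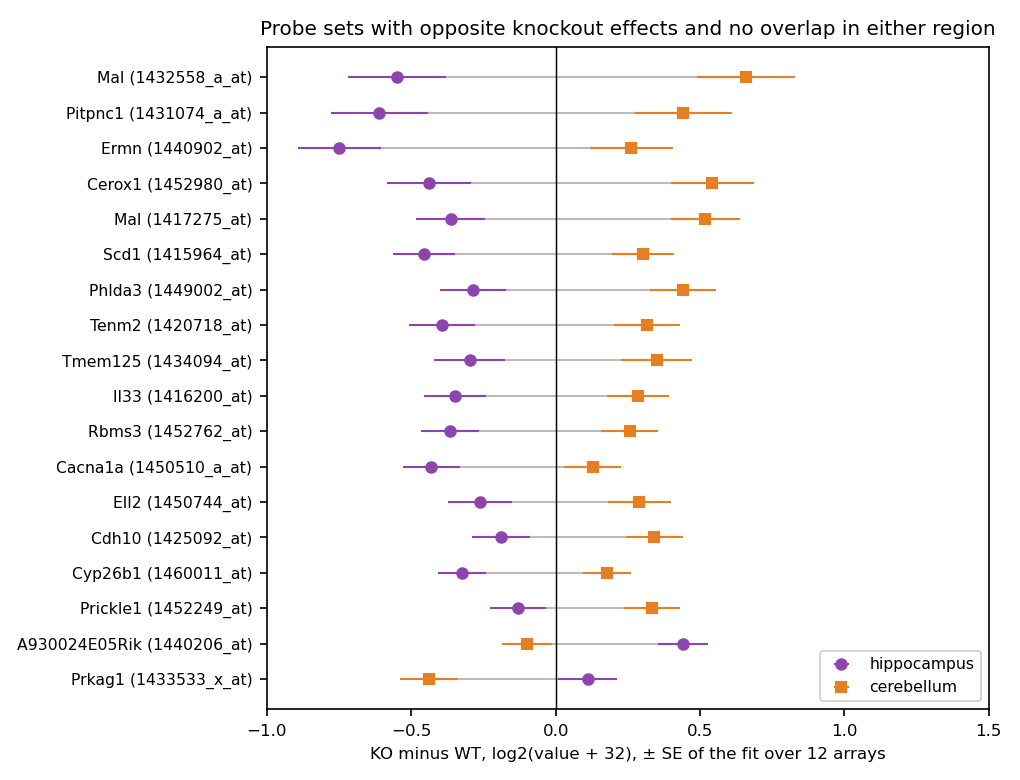
Log2 KO effect in hippocampus (circles) and cerebellum (squares) of the 18 named probe sets whose KO and WT arrays lay apart in opposite directions in the 2 regions, with bars for the SE of the fit over 12 arrays. In 16 of the 18 the hippocampus effect lies below 0 and the cerebellum effect above 0, with A930024E05Rik and Prkag1 the other way round.

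Phlda3, a p53 target that restrains Akt, had 752, 743 and 829 in KO hippocampus, against 975, 1053 and 837 in WT hippocampus. It had 612, 601 and 581 in KO cerebellum, against 512, 382 and 412 in WT cerebellum. The effects were -0.29 and 0.44, and the gap in hippocampus rested on values of 829 in KO and 837 in WT.

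Cerox1, a long noncoding RNA that regulates subunits of respiratory complex I, had effects of -0.44 and 0.54, with 460, 450 and 525 in KO hippocampus, against 786, 636 and 571 in WT hippocampus. In cerebellum Cerox1 had 402, 488 and 444 in KO, against 365, 261 and 266 in WT. Pitpnc1, a phosphatidylinositol transfer protein, had effects of -0.61 and 0.44. Its hippocampus groups lay apart by only 201 in KO and 207 in WT.

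Il33, an alarmin cytokine stored in the nuclei of glia, had 491, 451 and 413 in KO hippocampus, against 580, 588 and 579 in WT hippocampus. In cerebellum it had 169, 139 and 138 in KO, against 136, 103 and 110 in WT. The groups lay apart in both regions, but in cerebellum by only 138 in KO and 136 in WT. Tenm2, a teneurin that links synaptic membranes, had effects of -0.39 and 0.32, with 624, 658 and 561 in KO hippocampus, against 861, 759 and 830 in WT hippocampus. Its cerebellum groups lay apart by only 173.4 in KO and 172.7 in WT. Cyp26b1, which breaks down retinoic acid, had effects of -0.33 and 0.18, and its groups were close in cerebellum, with 497, 419 and 447 in KO, against 382, 414 and 395 in WT.

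Rbms3, an RNA binding protein, is the gene that the authors had selected as lower in hippocampus and as higher in cerebellum. It had 701, 581 and 613 in KO hippocampus, against 894, 835 and 740 in WT hippocampus, and 322, 294 and 325 in KO cerebellum, against 272, 258 and 243 in WT cerebellum. The difference of this probe set (1452762_at) was -0.62 ± 0.14 (SE). A second probe set of Rbms3 (1436937_at) had effects of -0.30 and -0.02, so only the hippocampus part of the pattern appeared there.

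A930024E05Rik ran the other way, with 392, 444 and 456 in KO hippocampus, against 286, 317 and 324 in WT hippocampus. On the cerebellum arrays it had 449, 484 and 473 in KO, against 488, 501 and 522 in WT, a small gap. Its effects were 0.44 and -0.10. The remaining 6 of the 18 lay outside the limit of 12 in the rule for named genes and are named after their values were seen. They are the calcium channel gene Cacna1a (-0.43 in hippocampus and 0.13 in cerebellum), the cadherin Cdh10 (-0.19 and 0.34), Tmem125 (-0.30 and 0.35), the elongation factor Ell2 (-0.26 and 0.29), the planar polarity gene Prickle1 (-0.13 and 0.33) and the AMP kinase subunit Prkag1 (0.11 and -0.44).

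Of 25 genes in the myelin list, 5 had a name and passed the filter. All 5 had a fitted effect below 0 in hippocampus and above 0 in cerebellum. The same held for 20.1% of all probe sets tested and 24.8% of the named ones. Opposite signs in either direction were seen in 45.5% of all probe sets tested. For the lists that named these 5 the share was 41.9% (lower in hippocampus alone) and 33.0% (higher in cerebellum alone). In 2 of the 5 the groups lay apart in both regions, as in 0.185% of all probe sets tested. Selection raises this share, which was 16 of 499 among the named probe sets. It was 5 of 129 lower in the hippocampus list alone and 10 of 209 higher in the cerebellum list alone. The medians were -0.36 and 0.26, and the median difference was -0.65, beside 0.01 for all probe sets tested. Named probe sets had a median difference of -0.345 when lower in the hippocampus list alone. For those higher in the cerebellum list alone it was -0.39, so much of the gap to 0.01 goes with selection. Mobp, a structural protein of compact myelin, had 5096, 5570 and 5502 in KO hippocampus, against 7071, 7286 and 5077 in WT hippocampus, where array 3 of WT lay below every KO array.

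In cerebellum Mobp had 5982, 7215 and 6322 in KO, against 5456, 4373 and 4954 in WT, without overlap. Gpr37, an orphan receptor that slows oligodendrocyte maturation, had effects of -0.39 and 0.04. Mbp had -0.29 and 0.11 with an SE of 0.34 on its difference, the least precise of the 5. The 5 genes had a summed intensity of 12264 to 12933 in KO hippocampus, against 13195 to 18402 in WT hippocampus, and of 11613 to 13833 in KO cerebellum, against 8917 to 10050 in WT cerebellum. Mal and Mobp made up most of these sums. No marker lay at 0. In such bulk tissue fewer cells of a type and less RNA per cell cannot be told apart. The authors had selected 2 of the 5 in hippocampus and 3 in cerebellum.

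The 3 measured genes of fatty acid synthesis, of 15 in that list, also had fitted effects below 0 in hippocampus and above 0 in cerebellum, with a median difference of -0.68. This sign pattern is the one of 20.1% of all probe sets tested. Opposite signs in either direction were seen in 45.5% of all probe sets tested. They were seen in 41.9% of named probe sets lower in the hippocampus list alone. For those higher in the cerebellum list alone the share was 33.0%, and the 3 genes came from these lists. In 1 of the 3 (Scd1) the groups lay apart in both regions, as in 0.185% of all probe sets tested. Among named probe sets, which were selected on these arrays, 16 of 499 did so, with 5 of 129 lower in the hippocampus list alone. Beside Scd1 these were Elovl1, an elongase of very long chains (-0.31 and 0.37), and Acly, which makes acetyl-CoA for lipid synthesis (-0.26 and 0.15). Acly had 1673, 1743 and 1704 in KO hippocampus, against 2065, 2088 and 1995 in WT hippocampus, without overlap, and overlapped in cerebellum. In cholesterol synthesis 6 of 7 measured genes were negative in both regions, with the more negative effect in hippocampus.

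Idi1, an isomerase of the mevalonate pathway, had 499, 574 and 562 in KO hippocampus, against 1195, 1129 and 954 in WT hippocampus. It had 363, 343 and 405 in KO cerebellum, against 496, 534 and 446 in WT cerebellum, so KO lay below WT in both regions. The effects of -0.96 and -0.38 differed by -0.58 ± 0.16 (SE, limma unadjusted p = 0.00309). All 7 cholesterol genes had a difference below 0, from -0.58 to -0.28, and all 7 had been selected in hippocampus. Of named probe sets lower in the hippocampus list alone, 98.4% had a difference below 0.

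Of 4 genes of sterol sensing and transport, none had effects of opposite sign, and the median difference was -0.19. The regulator Insig1 had -0.43 and -0.08. The exporter Abca1 had 0.43 and 0.66, and its difference of -0.23 turned to 57.4 on the intensity scale.

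Most glial genes had effects of the same sign and unequal size. Of 7 astrocyte genes all had a difference below 0 with a median of -0.45, and none had effects of opposite sign. The authors had selected 4 of the 7 in hippocampus and 5 in cerebellum, so the count is not independent of selection. Gfap, the intermediate filament of astrocytes, had 3058, 2829 and 3203 in KO hippocampus, against 1889, 1886 and 1942 in WT hippocampus (1426508_at). It had 1440, 1444 and 1546 in KO cerebellum, against 716, 493 and 496 in WT cerebellum. KO lay above WT without overlap in both regions. The log2 difference was -0.69 ± 0.17 (SE), but KO exceeded WT by 1124 ± 110 in hippocampus and 909 ± 82 in cerebellum on the intensity scale, so the direction turned with the scale. The other 2 Gfap probe sets had differences of -0.82 (1426509_s_at) and -0.36 (1440142_s_at).

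Glul, which makes glutamine from glutamate in astrocytes, had 7873, 8335 and 7926 in KO hippocampus, against 7224, 7812 and 8160 in WT hippocampus, with overlap. In cerebellum it had 4660, 5296 and 4531 in KO, against 3653, 3311 and 3184 in WT, without overlap. The effects were 0.06 and 0.51. Aqp4, the water channel of astrocyte endfeet, and Slc4a4, a bicarbonate cotransporter, were the 2 astrocyte genes with effects below 0 in both regions, where Slc4a4 had -0.28 and -0.07. Aqp4 had 3156, 3041 and 3504 in KO hippocampus, against 4314, 4608 and 4330 in WT hippocampus, and overlapped in cerebellum, with effects of -0.45 and -0.05. The summed intensity of the 7 genes was 33053 to 34639 in KO hippocampus, against 31942 to 33984 in WT hippocampus, and 21455 to 23418 in KO cerebellum, against 16711 to 17848 in WT cerebellum. Cst3, with 12611 to 13449 in KO hippocampus, held a large part of the sum there.

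Of 10 microglia genes 9 had a difference below 0, with a median of -0.52, and 1 (Ctss) passed the threshold. All 10 were in the authors' cerebellum list and 2 were in the hippocampus list. Of named probe sets higher in the cerebellum list alone, 99.0% had a difference below 0, so selection favours this sign. C1qb, a chain of the complement starter C1q, had 1247, 1417 and 1419 in KO hippocampus, against 1290, 1453 and 1530 in WT hippocampus (1417063_at). Its cerebellum values were 187, 289 and 290 in KO, against 148, 94.0 and 86.7 in WT. The groups overlapped in hippocampus and lay apart in cerebellum, with effects of -0.06 and 1.02 and a difference of -1.09 ± 0.25 (SE). The other 2 probe sets of C1qb gave differences of -0.42 (1437726_x_at) and -0.20 (1434366_x_at), with hippocampus effects of 0.18 and 0.20. In hippocampus KO lay above WT without overlap for 1437726_x_at, and the groups overlapped for 1434366_x_at. The size of the difference and the sign of the hippocampus effect thus depended on the probe set.

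Laptm5, a lysosomal membrane protein of blood cells and microglia, had effects of 0.11 and 0.87. Mpeg1, a pore-forming protein of macrophages, was the exception, at 0.37 and 0.28. The summed intensity of the 10 genes was 13774 to 14224 in KO hippocampus, against 11458 to 12718 in WT hippocampus, and 4616 to 4955 in KO cerebellum, against 2397 to 2961 in WT cerebellum. The part of a changed number of microglia in these values was not tested.

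Of 8 lysosomal genes all had a difference below 0, with a median of -0.42. The authors had selected 7 of the 8 in cerebellum and 1 in hippocampus, so the count is not independent of selection. The spread was wide, from -0.88 for Ctss to -0.02 for the fucosidase Fuca1, whose effects were 0.23 and 0.25. Ctsc, another cathepsin, had 0.33 and 0.37. Among 5 complement genes, C4b stood against the C1q chains, with 1020, 903 and 963 in KO hippocampus, against 578, 650 and 561 in WT hippocampus. In cerebellum C4b had 742, 603 and 521 in KO, against 488, 549 and 477 in WT, and the groups overlapped. Its effects were 0.66 and 0.27. The authors had selected C4b in hippocampus alone, C1qa and C1qb in cerebellum alone and C1qc in both. The contrast of C4b with the C1q chains is therefore not independent of selection.

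**Figure D4:**
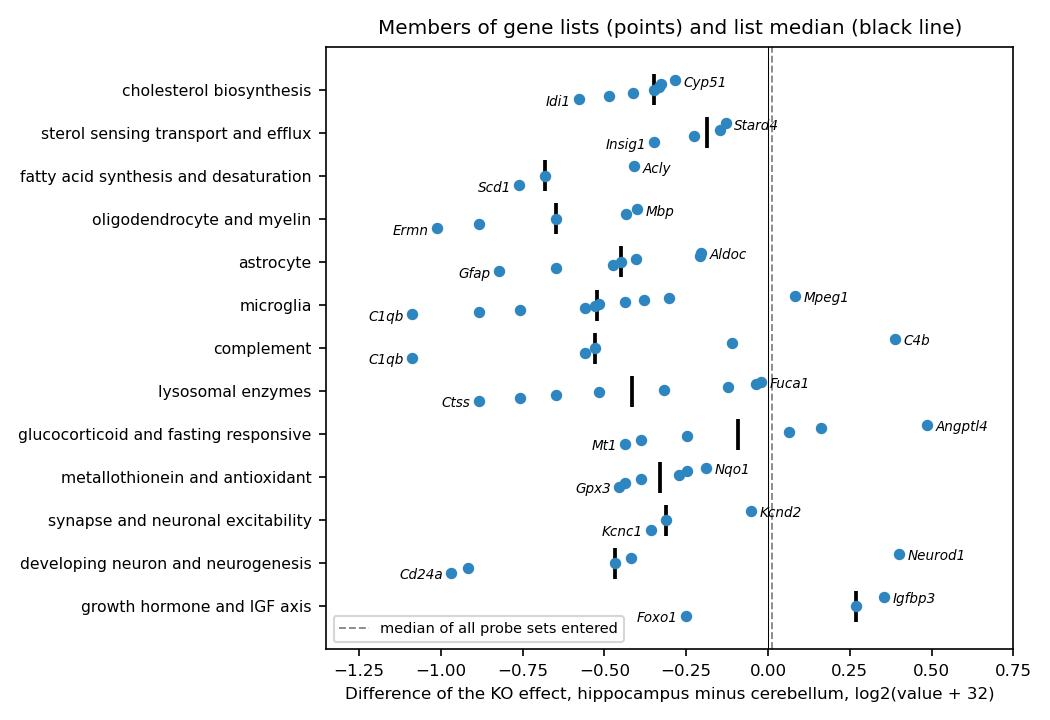
Difference of the log2 KO effect, hippocampus minus cerebellum, for the measured members of 13 gene lists (points, 1 probe set per gene), with the list median as a black line and the median of all probe sets tested as a dashed line. Myelin, fatty acid, cholesterol, astrocyte and lysosomal genes all lie below 0, while Mpeg1, C4b, Angptl4, Neurod1 and Igfbp3 lie above 0. The authors' selection in a single region underlies the names.

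Neuronal and developmental genes went in both directions. Cd24a, a surface glycoprotein of young neurons, had 1467, 1131 and 1428 in KO hippocampus, against 1202, 1329 and 1055 in WT hippocampus, with overlap. In cerebellum it had 403, 366 and 524 in KO, against 192, 209 and 139 in WT, without overlap. The difference was -0.97 ± 0.23 (SE), and a second probe set gave -0.89. Nnat, neuronatin of developing brain, had effects of -0.02 and 0.90.

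Neurod1, a transcription factor of granule neurons in both regions, had KO above WT without overlap in hippocampus alone, with 1651, 1753 and 1571 in KO hippocampus, against 1168, 1195 and 1346 in WT hippocampus. On the cerebellum arrays it had 7701, 7686 and 7183 in KO, against 6996, 7742 and 7593 in WT, with overlap. The effects of 0.42 and 0.02 gave a difference of 0.40 ± 0.11 (SE). Of the 5 measured genes of young neurons Neurod1 was the only 1 above 0.

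Several genes had fitted effects of opposite sign with overlap in 1 region, where the effect was near its SE or smaller and its sign uncertain. Below 0 these were the potassium channel Kcnk2 (-0.03 in hippocampus and 0.60 in cerebellum), the G protein regulator Rgs4 (-0.10 and 0.59), the neuronal gap junction gene Gjd2 (-0.12 and 0.50) and the synaptic scaffold Tanc2 (-0.11 and 0.52). In all 4 the groups overlapped in hippocampus and KO lay above WT in cerebellum. The SE of each effect was 0.09 for Kcnk2 and 0.10 for Rgs4, Gjd2 and Tanc2. Klhl4, of the Kelch family (-0.67 and 0.13), and the glycosyltransferase Mgat5 (-0.40 and 0.07) had the overlap in cerebellum instead. Their SE was 0.13 and 0.08.

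Above 0, beside Tle6, stood the Golgi protein gene Golm1 (0.41 and -0.09), Dcaf5 of a ubiquitin ligase (0.60 and -0.02), the ubiquitin ligase gene Znrf2 (0.37 and -0.13), the postsynaptic scaffold Homer3 (0.27 and -0.16) and Nab2, a corepressor of Egr factors (0.02 and -0.58). Golm1 had 1851, 1670 and 1733 in KO hippocampus, against 1330, 1207 and 1396 in WT hippocampus, and overlapped in cerebellum. Nab2 had 680, 624 and 600 in KO cerebellum, against 1138, 862 and 913 in WT cerebellum, and overlapped in hippocampus. The SE of each effect was 0.08 for Golm1, 0.11 for Dcaf5, 0.10 for Znrf2, 0.09 for Homer3 and 0.12 for Nab2.

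Genes of the same sign with the larger effect in hippocampus included Dpy19l1, a C-mannosyltransferase gene, with 398, 462 and 414 in KO hippocampus, against 868, 765 and 658 in WT hippocampus. It had 796, 765 and 797 in KO cerebellum, against 946, 836 and 862 in WT cerebellum, without overlap in either region. Its effects were -0.80 and -0.16. Cort, the neuropeptide cortistatin, had 0.56 and 0.05, and the synaptic vesicle gene Syt2 had -0.51 and -0.11. The imprinted gene Ndn had 4 probe sets with differences of 0.18 to 0.30, all with KO above WT in hippocampus and overlap in cerebellum. Pisd-ps3 (0.59 and 0.06) is a pseudogene, and its probe set may report on related transcripts.

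With the larger effect in cerebellum stood Fgf7, a growth factor, with 597, 623 and 593 in KO cerebellum, against 302, 388 and 299 in WT cerebellum. In hippocampus Fgf7 had 123, 125 and 122 in KO, against 121, 116 and 97.8 in WT, close together. Plppr1, a membrane protein of growing axons, had 0.06 and 0.71. D430019H16Rik had 0.12 and 0.92, but its KO minus WT on the intensity scale was larger in hippocampus by 247. Of 101 probe sets chosen by the rule for named genes, 4 of them with no gene name, 86 had the same sign of difference on both scales.

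The metal binding proteins Mt1 and Mt2 had effects of 0.20 and 0.64, and of 0.20 and 0.59. For Mt1 the intensities were 8731, 9348 and 8452 in KO hippocampus, against 7415, 7560 and 8113 in WT hippocampus, and 7498, 9306 and 7735 in KO cerebellum, against 5763, 4867 and 5104 in WT cerebellum. KO lay above WT in both regions, and all 6 metallothionein and antioxidant genes had a difference below 0 (median -0.33). All 6 were in the authors' cerebellum list and 2 in the hippocampus list, so the count is not independent of selection. Angptl4, an inhibitor of lipoprotein lipase that rises on fasting, had 0.43 and -0.06, whereas Sult1a1, a sulfotransferase, had 1.06 and 1.30. The 6 measured genes that respond to glucocorticoids or fasting had 3 differences above and 3 below 0, with a median of -0.09. The p53 target Trp53inp1 had 0.35 and 0.42, unlike Phlda3.

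**Figure D5:**
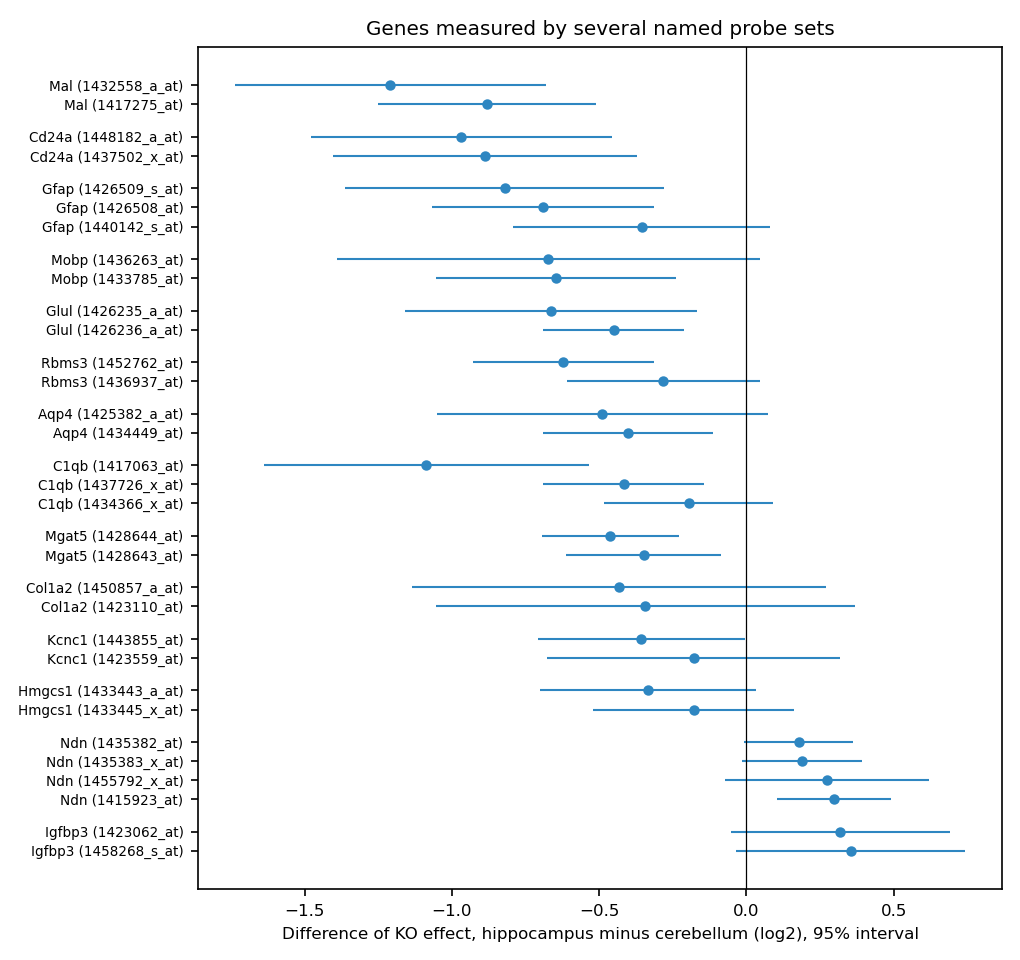
Difference of the log2 KO effect, hippocampus minus cerebellum, for each named probe set of 14 genes that have several, with bars for the 95% confidence interval. All probe sets of a gene lie on the same side of 0, and those of C1qb, from -1.09 to -0.20, and of Gfap, from -0.82 to -0.36, differ in size.

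The genes selected in only 1 region show how the other region behaved. Of 209 probe sets higher in the cerebellum list alone, 140 had an effect above 0 in hippocampus, 29 with KO above WT without overlap and 10 with KO below WT, where 4.6% and 4.56% of all probe sets did so. Over all probe sets 46.9% had an effect below 0 in hippocampus, and in cerebellum 52.3% lay below 0 and 47.7% above. Of 129 lower in the hippocampus list alone, 75 had an effect below 0 in cerebellum, 13 with KO below WT without overlap and 5 with KO above WT, where 3.91% and 5.88% did so. Of 74 higher in the hippocampus list alone, 58 had an effect above 0 in cerebellum, 20 with KO above WT without overlap and 1 below. Of 58 lower in the cerebellum list alone, 44 had an effect below 0 in hippocampus, 13 with KO below WT without overlap and 1 above.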

How the data were processed

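RNA of 12 samples was hybridised to 12 arrays, 3 for each region and genotype. The values deposited by the authors are intensity on a linear scale, 1 per probe set and array, from dChip, per the series' design text. The sources used here name no dChip version, background step or array normalization. In the authors' deposited short lists, the signed fold change (a score) and the unadjusted p-value come from the authors, per the file headers. These lists were used here only for names and for the region of selection. Of 610 listed probe sets 538 have 1 current symbol (5 matched through an accession and 42 through a synonym of the RefSeq table of GRCm38.p6), 21 name several genes and 51 have none. No sample column was left unused (0), and no pair of arrays held identical values.

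Values were taken as log2(value + 32), control probe sets were left out, and the filter, at the 40th percentile, was applied in both regions. The contrast was fitted with limma 3.58.1 in R 4.3.3 (lmFit, eBayes with a trend) over 12 arrays, two-sided, with Benjamini-Hochberg adjustment over 23283 probe sets at 0.05. The arrays' number limits the precision, and the p-values measure only the spread between these arrays, which may be technical. A gene's brightest named probe set stood for it in the lists. The members and the 24 gene lists were chosen with earlier results of these data known, so no list was tested.

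Named genes were those past the threshold; up to 12 probe sets with opposite effects without overlap; 6 in each direction with opposite signs and overlap; 8 with the larger same-sign effect in each region; 4 members of each list with the smallest p; their further probe sets; Ercc1; and 2 unnamed probe sets in each direction. A few of the genes so chosen go unreported. Promoters came from RefSeq (GRCm38.p6). In data simulated for this contrast, with 200 of 23283 probe sets changed, 71% of differences of 1 log2 unit and 14% of 0.5 were called, with 6 false calls. The simulated noise was drawn independently for each probe set and array. It held no residual component shared between probe sets, unlike the real arrays, so these figures may not apply to them. The alternatives were the pseudocount, the filter, quantile normalization, the trend, array weights, a replicate block, a residual component, the threshold and each array left out. The intensity scale was added after the data were seen. Python 3.11.15 and matplotlib 3.10.9 drew the plots.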

Additional observations from a re-analysis of the deposited data

Results flagged for a closer look

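The KO effect on Ctss differed between hippocampus and cerebellum by -0.88 on the log2 scale, and a test of that difference passed (limma, Benjamini-Hochberg adjusted p = 0.0306). The effect was 0.25 in hippocampus and 1.13 in cerebellum, with KO above WT on all arrays of both regions. No test for an outlying array within a group was run, because each group holds 3 arrays.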

How the results depend on the processing

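The main counts were 0 probe sets above 0 and 1 below 0. Above 0 the count was 1 with a pseudocount of 16, 2 with a weight for each array, with the residual component or at a threshold of 0.1, and 0 to 3 when each array was left out. Below 0 it was 0 with no filter, with quantile normalization within regions, without the trend, with the replicate block and with mice as the block, 2 with a weight for each array, with the residual component or at 0.1, and 0 to 1 when each array was left out. Opposite effects without overlap, KO higher in hippocampus, were 49 with no filter and 13 with the 60th percentile (main 23), and 36 to 100 when an array was left out. With KO lower in hippocampus they were 58 to 124 (main 43). Fewer arrays overlap less by construction.

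The Ctss difference of -0.88 lost its call with no filter (adjusted p = 0.0717), with quantile normalization within regions (-0.87, adjusted p = 0.0557), without the trend (0.0524) and with each form of replicate block (0.0714, 0.281 and 0.613). Leaving out each array gave -0.92 to -0.83, with limma adjusted p from 0.0335 to 0.205. It passed in 12 of 28 alternatives. On the intensity scale it was -92.2. Samples with the same replicate number correlated, in deviations from group means, at -0.273 to 0.577 across regions within a genotype, at -0.526 to 0.688 within a region and at 0.077 to 0.655 otherwise, so not every pair passed 0.1, the mark for pairing used here. Both regions came from the same mice per the design text, but the labels do not say whether a number names a mouse, so pairing by mouse cannot be settled here. The cause of these lost calls was not tested.

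Of 2872 values for the 100 other probe sets chosen by the rule for named genes, 10 gained a call: 1457458_at passed in 5 alternatives, Tle6 in 3 and Cst3 in 2, with limma adjusted p down to 0.00154, 0.0351 and 0.0174. Another 25 reversed, none of them past the threshold. Leaving out each array gave -0.2862 to 0.0197 for Kcnc1 (1423559_at), -0.1342 to 0.0054 for Trp53inp1, -0.3792 to 0.1071 for Alas2 and -0.2357 to 0.1784 for Kcnd2, whose value was 0.2192 with a weight for each array. On the intensity scale they were D430019H16Rik (247), Gfap (216 and 256), Syt2 (63.6), C1qc (109), Kcnc1 (218 and 46.5), C1qb (1434366_x_at, 26.2), Abca1 (57.4), Sult1a1 (106), Stard4 (37.9), H2-K1 (6.0), B2m (168), Trp53inp1 (22.7) and Kcnd2 (68.6). The number of arrays and the unknown scaling between regions limit all of these values.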

Other observations

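Lists with 1 to 3 named members, not described above, gave these values. Igfbp3, a carrier of insulin-like growth factors, had 532, 580 and 456 in KO hippocampus, against 315, 343 and 347 in WT hippocampus, without overlap, and overlapped in cerebellum, with effects of 0.59 and 0.24. Pappa, a protease of such carriers, had effects of -0.21 and -0.48, and Foxo1, a transcription factor restrained by insulin signalling, had 0.06 and 0.31. The matrix genes Fmod and Col1a2 had 0.03 and 0.68, and -0.07 and 0.37. The antigen presentation genes H2-K1 and B2m had 0.32 and 0.42, and 0.28 and 0.37. The potassium channels Kcna1 and Kcnc1 had -0.37 and -0.05, and -0.62 and -0.26, and Alas2, of heme synthesis in red cells, had -0.64 and -0.54. No difference of these genes passed the threshold. Lists of oligodendrocyte progenitors, immediate early genes, hippocampal neurons, choroid plexus, endothelial cells and thyroid hormone responsive genes had no named member and give no value.

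Among probe sets with no gene name, 48 had opposite effects without overlap, 27 with KO lower in hippocampus and 21 with KO higher. Probe set 1455258_at had 2792, 2629 and 2311 in KO hippocampus, against 3068, 2854 and 3027 in WT hippocampus, and 345, 190 and 194 in KO cerebellum, against 97.1, 89.8 and 76.0 in WT cerebellum. Its difference of -1.37 ± 0.25 (SE) did not pass the threshold (limma adjusted p = 0.681).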
